A study of Homo sapiens with 6 samples.

Results

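The major histocompatibility complex (MHC) of chromosome 6 was examined in Omni-ATAC peak lists of MM.1S cells, a line established from multiple myeloma. All peaks of the 6 libraries that overlapped by at least 1 bp were merged, which gave 89196 regions over the genome, and the 347 regions in the hg38 interval 28500000 to 33500000 of chromosome 6 were kept, whatever the number of libraries that called them. The class I part (to the end of MICB at 31511124) held 184 regions, the class III part (to the end of NOTCH4 at 32224067) held 71, and the class II part (the remainder) held 92. Of these, 49 lay in the extended class I stretch that ends with MOG, and 32 in the extended class II stretch that starts with COL11A2.

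Cells were cultured for 72 h with 120 nM CB-6644, an inhibitor of the ATPase activity of RUVBL1 and RUVBL2, or with the DMSO vehicle, and sorted for live cells before the assay. RUVBL1 and RUVBL2 belong to more than one chromatin remodeling complex, INO80 among them, and the comparison asks where accessibility differed after their inhibition. Each group had 3 replicate libraries of the same line, with no genotype difference between groups, and peaks were called by the authors in each library on its own. The labels do not say whether replicates were separate cultures, so the p-values measure the spread between these libraries, which may be technical.

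The MHC carries the genes by which cells show peptides to T cells. Class I genes such as HLA-B and HLA-C encode receptors for peptides made inside nearly every cell, while class II genes (HLA-DR, HLA-DQ, HLA-DP) are normally restricted to antigen-presenting cells such as B cells, and are switched down as B cells become plasma cells, the cells from which myeloma arises. The class III part holds no peptide receptor but a dense set of other genes, among them the tumor necrosis factor cluster, complement and heat shock genes. Class I and class II promoters share a module of short elements, an X box bound by the RFX complex and a Y box, written CCAAT, bound by NFY, and class I promoters also carry NF-kB and IRF elements.

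The sequences of 8 accessible windows are shown as examples. They are promoters of peptide receptor, loading and supply genes, which did not pass the test between the groups, and regions that did. The test does not use the sequence. Each is the hg38 plus strand around the strongest summit, cut back to the stretch with no annotated UTR, and capitals mark every match, on either strand, to an NFY box (CCAAT, read as ATTGG on the other strand), an RFX half-site (GTTGCNNNG), an IRF element (GAAANNGAA), or to the NF-kB consensus.
HLA-C promoter, chr6:31272106-31272270: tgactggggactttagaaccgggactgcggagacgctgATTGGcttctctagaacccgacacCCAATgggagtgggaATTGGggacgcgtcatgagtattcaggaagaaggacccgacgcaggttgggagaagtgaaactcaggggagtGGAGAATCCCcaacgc
HLA-E promoter, chr6:30489271-30489470: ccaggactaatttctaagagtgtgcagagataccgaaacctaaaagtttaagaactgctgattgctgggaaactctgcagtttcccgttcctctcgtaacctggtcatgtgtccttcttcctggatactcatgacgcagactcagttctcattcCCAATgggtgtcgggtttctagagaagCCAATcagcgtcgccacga
PSMB8 and PSMB9 promoter, chr6:32844680-32844835: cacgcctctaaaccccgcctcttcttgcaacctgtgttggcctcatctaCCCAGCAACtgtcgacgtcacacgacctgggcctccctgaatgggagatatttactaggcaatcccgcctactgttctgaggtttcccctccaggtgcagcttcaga
HLA-DMA promoter, chr6:32953123-32953289: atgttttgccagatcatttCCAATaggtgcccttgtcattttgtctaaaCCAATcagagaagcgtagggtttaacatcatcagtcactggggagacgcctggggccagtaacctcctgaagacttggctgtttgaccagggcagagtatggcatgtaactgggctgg
HLA-DMB promoter, chr6:32941029-32941196: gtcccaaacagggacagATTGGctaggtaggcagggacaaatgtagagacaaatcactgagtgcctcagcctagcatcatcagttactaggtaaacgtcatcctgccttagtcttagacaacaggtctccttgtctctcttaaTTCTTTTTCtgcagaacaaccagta
region in a DDAH2 exon, chr6:31727591-31727790: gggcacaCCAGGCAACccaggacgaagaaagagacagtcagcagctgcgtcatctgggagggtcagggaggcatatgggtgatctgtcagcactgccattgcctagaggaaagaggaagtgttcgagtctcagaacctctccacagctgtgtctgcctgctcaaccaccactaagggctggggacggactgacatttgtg
TRIM31 promoter, chr6:30113144-30113343: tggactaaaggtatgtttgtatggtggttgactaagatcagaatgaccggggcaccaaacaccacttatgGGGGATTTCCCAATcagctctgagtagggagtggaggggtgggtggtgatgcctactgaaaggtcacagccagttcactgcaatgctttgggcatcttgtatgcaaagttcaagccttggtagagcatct
region upstream of HLA-G, chr6:29813910-29814109: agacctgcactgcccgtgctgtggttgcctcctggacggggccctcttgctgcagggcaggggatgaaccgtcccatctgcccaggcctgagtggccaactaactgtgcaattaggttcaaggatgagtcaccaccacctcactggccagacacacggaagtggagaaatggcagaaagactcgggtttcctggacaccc
The PSMB8 and PSMB9 window and the DDAH2 region hold an RFX half-site, and the HLA-C, HLA-E, HLA-DMA and HLA-DMB windows hold 1 to 3 NFY boxes each. In the TRIM31 window the NF-kB matches and the NFY box overlap in 1 run of capitals. The region upstream of HLA-G holds none of these letters.

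These matches were counted in the window of 200 bp around the summit of every region. An NFY box was present at 52 of the 132 MHC promoters (39.4%) and at 25.2% of all 16783 promoters with a region. By part, the share was 35.3% in class I, 32.6% in class III and 52.6% (20 of 38 promoters) in class II. The IRF element was present at 7.58% of MHC promoters and 4.79% of all promoters, the RFX half-site at 11.4% and 10.5%, and the GC box (GGGCGG) at 50% and 59.5%. The NF-kB consensus was found at 10.6% of MHC promoters (17.6% in class I, 4.65% in class III and 7.89% in class II) and at 9.04% of all promoters. The heat shock element (GAANNTTC) was present at 4.55% of MHC promoters and 2.41% of all, the cyclic AMP response element (TGACGTCA) at 2.27% and 2.11%, and the CTCF consensus at 1.52% and 2.89%. Away from promoters the CTCF consensus was present at 4.65% of MHC regions and 2.74% of all such regions. There the GC box was at 16.3% and 7.95% and the IRF element at 14% and 15.7%, both in the other direction from promoters. The NFY box was at 25.1% and 20.5%, the RFX half-site at 7.91% and 8.52%, and the NF-kB consensus at 8.37% and 5.89%. The heat shock element was at 5.58% and 5.28%, and the cyclic AMP response element at 0.465% and 0.325%. A match is only a run of letters, no test was made on these shares, and neighboring promoters are not independent.

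The lists held 58563 to 79020 peaks on chromosomes 1 to 22, X and Y, and no read totals, so depth per library is unknown. CB-6644 replicate 2 and DMSO replicate 1 had shortest peaks of 65 and 91 bp, against 131 to 152 bp in the other 4 libraries, and are called short-fragment libraries. Fragment length itself was not measured here, and the reason for the shorter peaks is not given in the sources used here. The promoters of 7 of 8 plasma cell markers, among them SDC1 and XBP1, had a peak in all 6 libraries, and SLAMF7 lacked it in 1 library. Among markers of other cells, PAX5 (B cells), CD14 (monocytes), HBB (red cells) and COL1A1 (fibroblasts) had a promoter peak in all 6, and MS4A1 (B cells), CD3D and CD3E (T cells) and LYZ (myeloid cells) had none. Where accessibility is lower in such bulk libraries, fewer open cells and fewer insertions per cell cannot be told apart.

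The MHC was more densely accessible than the rest of the genome in every library. Over the 6 libraries it held 53.9 ± 3.64 called regions per Mb (SD, n = 6 libraries), against 21.5 ± 2.03 in the rest, and the ratio within a library ran from 2.41 to 2.66. The class III part had the highest density, at 78.1 ± 5.44 regions per Mb, followed by class II at 57.3 ± 4.79 and class I at 46.7 ± 3.15. Each part lay above the rest in 6 of 6 libraries (exact two-sided sign-flip test, p = 0.03125, the smallest that 6 libraries allow). This p-value speaks to agreement between lists of the same line, and the spread of density among other loci was not measured. The gene annotation runs in parallel, with 94 protein-coding genes per Mb in class III, 33.7 in class II, 24.2 in class I and 6.77 in the rest of the genome, and its part in the density was not tested.

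Accessible regions were also placed more often at promoters, meaning within 1000 bp of a protein-coding start site. This held for 132 of the 347 MHC regions (38%) and 18.7% of the rest. The share was 60.6% in class III, 41.3% in class II and 27.7% in class I. Of the 347 regions, 165 overlapped no protein-coding gene, and the others did. The former are called intergenic here, also where they overlap a pseudogene or a noncoding gene. Called in all 6 libraries were 197 regions (56.8%, against 47.1% of the rest), namely 102 in class I, 44 in class III and 51 in class II, and 35 regions (10.1%, against 15.7%) were called in 1 library. Among MHC promoters 74.2% were called in all 6 libraries, less than the 79.5% of promoters in the rest. Among MHC regions away from promoters it was 46%, against 39.7% in the rest. The class II promoters had the lowest share of the 3 parts, at 63.2%, with 82.4% in class I and 74.4% in class III.

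**Figure D1:**
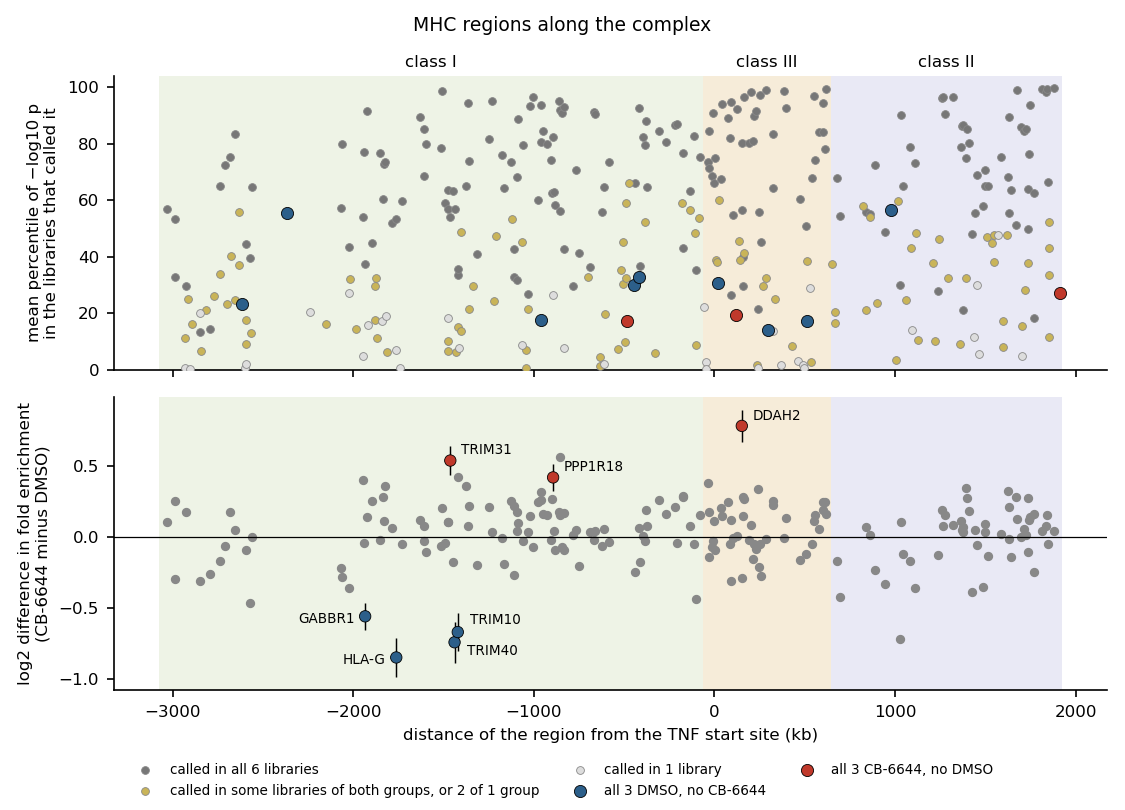
Each point is a merged region, placed by its distance in kb from the TNF start site, with the class I, class III and class II parts shaded. The upper panel gives the mean percentile of −log10 p (100 is the strongest peak of a list) over the libraries that called the region, colored by the pattern of calls, and the lower panel the log2 difference in fold enrichment for the 197 regions called in all 6 libraries, with the 7 regions past an adjusted p of 0.05 named by the nearest gene and drawn with their standard error.

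Long stretches without a region shared by all 6 libraries lay between the dense ones. The longest spanned 492 kb (29017362 to 29509291) and held 14 coding genes, 13 of the olfactory receptor family and MAS1L. It was not empty, since 3 regions inside it were called in fewer libraries, and its longest run with no region in any library was 194 kb. None of the 15 olfactory receptor genes of the interval had a region at its promoter in any library. In class II, 142 kb over TSBP1 and BTNL2 (32271769 to 32413390) and 130 kb over HLA-DQA2 and HLA-DQB2 (32685960 to 32815970) had no region shared by all 6 libraries, and no region in any library over 125 and 85.1 kb of them. Of the 183 coding genes of the interval, 121 had a region at a promoter in at least 1 library and 108 in all 6.

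The 3 strongest regions of each part were all promoters. By mean percentile of −log10 p within a library, class I was led by the promoters of PPP1R11, a phosphatase inhibitor (98.6), ABCF1, an ABC-family protein of translation (96.6), and RPP21, a subunit of RNase P (95). Class III was led by GPSM3, a regulator of G protein signaling (99.2), NEU1, a lysosomal sialidase (98.9), and the shared promoter of NELFE and SKIC2 (98.5), which act in transcription pausing and RNA decay. Class II was led by ZBTB9 (99.6), CUTA (99.2) and the kinesin gene KIFC1 (99.2), all in the extended stretch and none of them a peptide receptor. The log2 differences of these 9 regions ran from -0.07 (ABCF1) to 0.20 (PPP1R11), and none passed the test described next.

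The size of accessibility was then compared between the groups. The fold enrichment of a peak is the authors' ratio of its pile-up to the local background. It was put on the log2 scale and quantile normalized over the 42089 regions of the genome called in all 6 libraries, and tested by limma with the fragment-length set as a covariate and Benjamini-Hochberg adjustment over all of them. At an adjusted p under 0.05, 3 of the 197 MHC regions were higher with CB-6644 (3.37% of all regions tested were) and 4 were lower (3.99% of all).

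The largest increase lay in class III at 31727377 to 31727870, within a coding exon of DDAH2 (ENSG00000213722.10, minus strand), which encodes a dimethylarginine dimethylaminohydrolase, 1007 bp from a start site of the gene. Its window is shown above, with the RFX half-site near the left end. The fold enrichment was 17.1, 32.5 and 15.1 in CB-6644 replicates 1, 2 and 3, and 17.2, 11 and 9.63 in DMSO replicates 1, 2 and 3. On the quantile normalized scale all 3 CB-6644 libraries lay above all 3 DMSO libraries, though the unscaled values of the groups overlap. The log2 difference was 0.78 (SE 0.11, limma adjusted p = 0.014). The promoter of DDAH2, within the same gene at 31729288 to 31730405, had a log2 difference of -0.29 (SE 0.11, limma adjusted p = 0.15), with folds of 6.86 to 8.59 with CB-6644 and 9.68 to 10.5 with DMSO.

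The other regions that passed the test were in class I, and 3 of them lay within 41.8 kb in a run of TRIM genes, which encode ubiquitin ligases and related proteins. At the TRIM31 promoter (30113133 to 30113647, 43 bp from its start site, over TRIM31-AS1) the folds were 21.6, 22.2 and 19.7 with CB-6644 and 18.4, 16.6 and 13.5 with DMSO. Every CB-6644 library was above every DMSO library, and the log2 difference was 0.54 (SE 0.10, limma adjusted p = 0.030). At the TRIM40 promoter (30136491 to 30137273, over an exon with UTR and coding sequence) the folds were 13.6, 11.1 and 17.9 with CB-6644 and 27.9, 23.5 and 25.3 with DMSO.

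Here every CB-6644 library was below every DMSO library (log2 difference -0.74, SE 0.14, limma adjusted p = 0.030). An intronic region of TRIM10 (30154606 to 30154903, 6.03 kb from its start site) was also lower, with folds of 8.92, 6.55 and 7.07 against 14.7, 13.9 and 10.4 (log2 difference -0.67, SE 0.14, limma adjusted p = 0.033). The stretch thus held changes in both directions. It had 5 regions, of which 4 were called in all 6 libraries, and the remaining tested one, 4.72 kb from the TRIM40 start, had a log2 difference of -0.18 (adjusted p = 0.34).

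The largest decrease was at an intergenic region 12.7 kb from the start of HLA-G, a non-classical class I gene (29813870 to 29814252). Its folds were 13.8, 11.3 and 12.5 with CB-6644 and 30.3, 26.6 and 18.5 with DMSO, so the lowest DMSO library was above the highest CB-6644 library (log2 difference -0.85, SE 0.14, limma adjusted p = 0.019). HLA-G itself had no region at its promoter in any library. An intergenic region 7.5 kb from the start of GABBR1, a GABA receptor gene (29641479 to 29642093), had folds of 10.9, 10.5 and 11.1 with CB-6644 and 20.4, 18.2 and 15 with DMSO (log2 difference -0.56, SE 0.09, limma adjusted p = 0.020). An intronic region of PPP1R18, which encodes a phosphatase regulatory subunit (30682235 to 30683010, 1.73 kb from its start site), had folds of 11.4, 16.3 and 11.9 against 13.9, 9.48 and 8.79 (log2 difference 0.42, SE 0.09, limma adjusted p = 0.046).

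The 7 calls rested on the full set of libraries. Without CB-6644 replicates 1, 2 and 3 in turn, 0, 1 and 1 MHC regions were higher and 2, 1 and 2 lower, and without DMSO replicates 1, 2 and 3, 1, 0 and 0 were higher and 4, 0 and 1 lower. Over the genome the calls also went down in each of these fits, from 1420 higher to between 189 and 1131, and from 1680 lower to between 161 and 1485. In the 4 long-fragment libraries 1 MHC region was higher, the DDAH2 exon (log2 difference 0.70, limma adjusted p = 0.036), and 0 were lower. The log2 differences of the 7 regions kept their sign in every fit of log2 fold. This says little, since the regions were picked as called and had groups that did not overlap. In addition, changing the covariate or block left the estimate the same (0.78 for the DDAH2 exon). Without the fragment-length covariate 0 passed in either direction (0.19 for the DDAH2 exon and 0.052 for the region near HLA-G, both limma adjusted p).

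**Figure D2:**
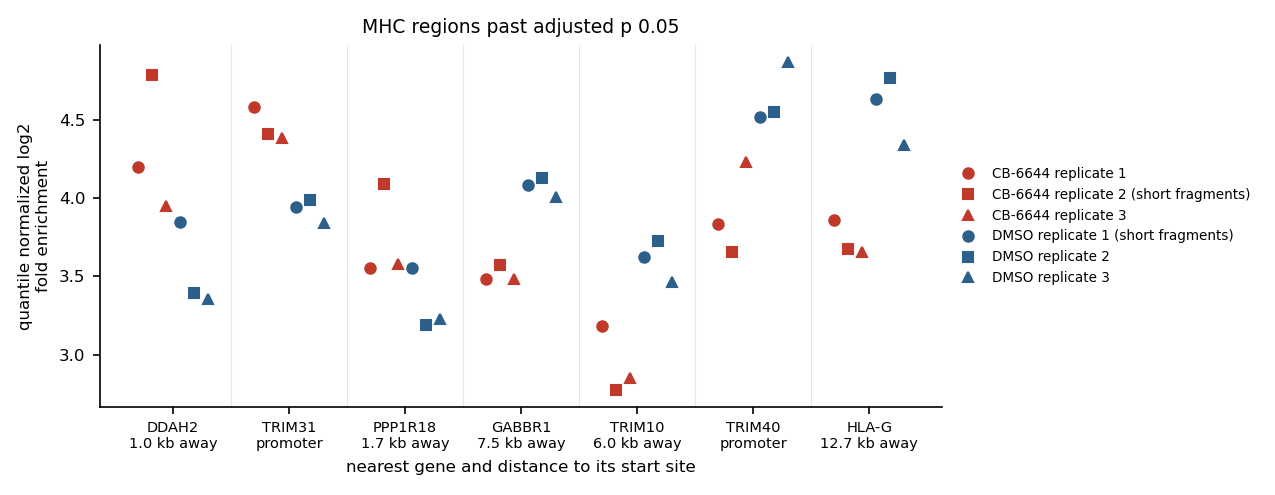
Quantile normalized log2 fold enrichment of the 7 MHC regions past an adjusted p of 0.05, 1 point per library, red for CB-6644 and blue for DMSO, ordered by log2 difference. In each region the 3 CB-6644 points lie on 1 side of the 3 DMSO points, the narrowest gap being at PPP1R18, where CB-6644 replicate 1 and DMSO replicate 1 both read 3.55.

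Counting regions whose groups do not overlap gave 12 of 197 with all 3 CB-6644 values above all DMSO values (6.09%) and 9 below (4.57%), where 10.7% of all regions tested were above and 10.7% were below. At an unadjusted p under 0.05 there were 27 MHC regions (13.7%), and 26.4% of all regions tested. The median log2 difference was 0.05 over MHC regions and 0.02 over all. At promoters it was 0.11 in the MHC and 0.09 over all promoters, and away from promoters it was -0.03 in both. Positive differences made up 72.4% of the 98 MHC promoters tested and 71.1% of all promoters tested. Promoters made up 49.7% of the MHC regions tested and 31.7% of all tested. Among promoters 6.12% lay above and 4.08% below in the MHC, against 9.89% and 4.15% over all. Limma called 1 of 98 MHC promoters higher and 1 lower, against 198 and 86 of 13341. Away from promoters 6.06% lay above and 5.05% below, against 11.1% and 13.7%. The MHC thus had smaller shares past each threshold than all regions, with medians close to theirs and a larger part of promoters. At promoters the share below was close to that of all, and no test compared them.

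At the class I peptide receptors described here no promoter passed the test in either direction. HLA-B, which presents cytosolic peptides to CD8 T cells, had 2 promoter regions, of which the stronger (31366827 to 31367373) is given. It lies at the upstream end of the annotated gene (31353872 to 31367067, minus strand). Outside annotated UTR its window held no NFY, RFX, IRF or NF-kB match, so its values may not speak for the other region. Its folds were 34.2, 45.7 and 31.2 with CB-6644 and 45.6, 35.6 and 32.1 with DMSO. The log2 difference was -0.04 (SE 0.10, limma adjusted p = 0.81). For HLA-C (31271170 to 31272399) the folds were 20.7, 31 and 19.4 against 29.6, 18.2 and 15.9 (0.26, SE 0.10, limma adjusted p = 0.16). The short-fragment library of each group was its highest at both genes, and the ranges of the groups overlap.

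HLA-E, a ligand of inhibitory receptors on natural killer cells, had folds of 20.5 to 25.1 with CB-6644 and 19.2 to 28 with DMSO (log2 difference 0.10). HLA-F, another non-classical gene, had 19.7 to 22.1 and 18.9 to 28.6 (-0.02). The stress ligands MICA and MICB, which are recognized by the activating receptor NKG2D, had log2 differences of 0.28 (SE 0.10, limma adjusted p = 0.13) and 0.15 (SE 0.10, limma adjusted p = 0.36).

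Peptide supply to class I lies in the class II part. TAP1 and TAP2 form the peptide transporter, PSMB8 and PSMB9 are immunoproteasome subunits, and TAPBP (tapasin) loads peptides. PSMB8 shared 1 region with PSMB9 (32843980 to 32845091), with folds of 21.4, 31.8 and 21.7 against 31.7, 22.2 and 20.2 and a log2 difference of 0.07. TAP1 had 0.16 (32853086 to 32854635, a promoter it shares with PSMB9), TAP2 had 0.19 and TAPBP -0.11, with limma adjusted p from 0.26 to 0.63 over these genes. All 5 had a promoter peak in all 6 libraries, at a median percentile of 93.2, and 0 passed the test.

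The class II receptors stood apart by their calls. Of the 9 genes, HLA-DPA1 and HLA-DPB1 had a promoter called in all 6 libraries, HLA-DRA, HLA-DRB1 and HLA-DQB1 in 5, and HLA-DRB5, HLA-DQA1, HLA-DQA2 and HLA-DQB2 in none. The library without a call was CB-6644 replicate 2 in each of the 3 genes. At HLA-DRA (32439551 to 32440252), which encodes the alpha chain of the DR receptor, the folds were 12.8 and 14.4 in CB-6644 replicates 1 and 3, and 13.7, 17.3 and 13.3 with DMSO. At HLA-DRB1 (32589602 to 32590154) they were 23.6 and 23.4 against 17.7, 30.1 and 24.9, and at HLA-DQB1 (32666428 to 32667085) 16.6 and 15 against 12.6, 18.8 and 15.4. The called CB-6644 values lay inside the DMSO range at HLA-DRB1 and HLA-DQB1, and at HLA-DRA they ran from below it to within it.

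DMSO replicate 1, the other short-fragment library, had the lowest DMSO fold at HLA-DRB1 and HLA-DQB1. An intronic region of HLA-DQA1, 1424 bp from its start (32635599 to 32635977), was likewise missing in CB-6644 replicate 2, and read 10.1 and 9.09 with CB-6644 and 12.6, 12.3 and 13.5 with DMSO. These genes were not tested for size, since a region had to be called in all 6 libraries. HLA-DPA1 (33073489 to 33073830) had a log2 difference of 0.03 (SE 0.12, limma adjusted p = 0.89) and HLA-DPB1 (33075570 to 33076303) 0.09 (SE 0.11, limma adjusted p = 0.65). HLA-DRB1 and HLA-DRB5 are close copies, and how the authors treated reads that fit several places is not given in the sources used here.

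The stretch from HLA-DRA to HLA-DQB1 (32439551 to 32667085, 228 kb) held 13 regions. CB-6644 replicate 2 called 6 of them, and the other libraries 11 to 13. Of the 13, 5 were missing in CB-6644 replicate 2 alone. Over the class II part that held for 9 of 92 regions (9.78%), over class I for 2.72%, over class III for 1.41%, and over the rest of the genome for 5.09%. At a region 17.8 kb from HLA-DQA1 in the same stretch (32609775 to 32610385) CB-6644 replicate 2 read 34.7, and the other 5 libraries read 23.8 to 35.5. At a region 14.1 kb from HLA-DRB1 (32603966 to 32604733) CB-6644 replicate 2 read 4.97 and the others 10.7 to 17.2, and the log2 difference there was -0.72 (SE 0.25, limma adjusted p = 0.12). What set CB-6644 replicate 2 apart here was not tested.

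**Figure D3:**
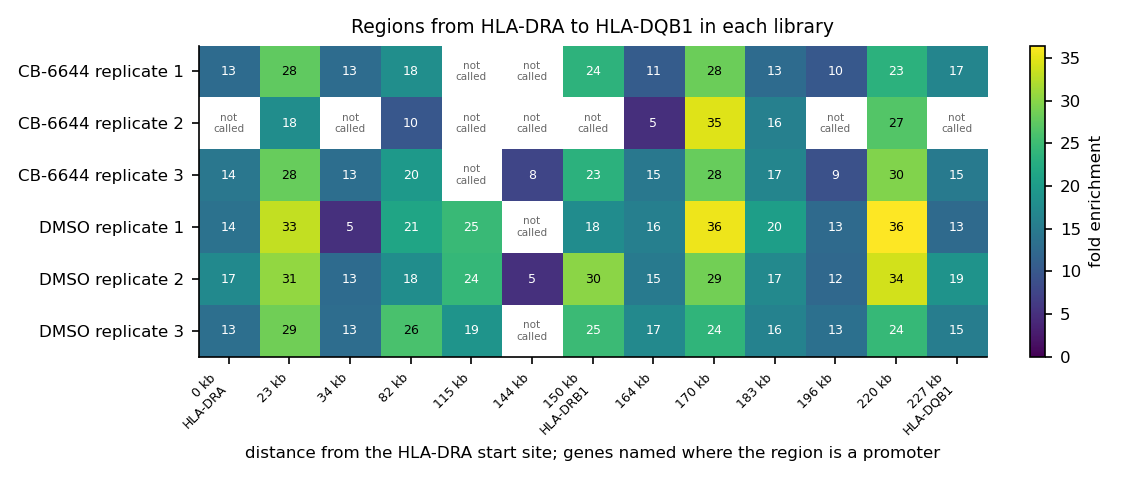
Fold enrichment of the 13 regions from HLA-DRA to HLA-DQB1 in each library, with regions in genomic order along the horizontal axis, labeled by distance in kb from the HLA-DRA start, and empty cells where no peak was called. CB-6644 replicate 2 lacks the HLA-DRA, HLA-DRB1 and HLA-DQB1 promoters, and the region over HLA-DRB6 has a peak in the 3 DMSO libraries and in none with CB-6644.

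Peptide exchange on class II molecules is the task of HLA-DM, restrained by HLA-DO. HLA-DMA (32952960 to 32953427) had folds of 21.7, 22.9 and 23 against 29.6, 22.2 and 20.7, with a log2 difference of 0.03 (SE 0.10, limma adjusted p = 0.88). HLA-DMB (32940841 to 32941332) had 13.2, 32.8 and 13.7 against 24.8, 15.9 and 12.9, with 0.11 (SE 0.13, limma adjusted p = 0.63). For both genes the groups overlap. HLA-DOB, which is expressed in B cells, had 2 promoter regions. The one over a start site (32816812 to 32817183) was called in all 3 DMSO libraries at 18, 12.1 and 11.4 and in CB-6644 replicate 1 alone at 16. The other, 585 bp from a start site (32815971 to 32816325), was called in all 6 libraries, at 8.96, 7.68 and 10.9 with CB-6644 and 10.5, 11.2 and 11.5 with DMSO (log2 difference -0.13, SE 0.12, limma adjusted p = 0.51). HLA-DOA had no region at its promoter. Next to these genes, BRD2, a bromodomain protein that reads acetylated histones, had a log2 difference of 0.27 (SE 0.16, limma adjusted p = 0.32).

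**Figure D4:**
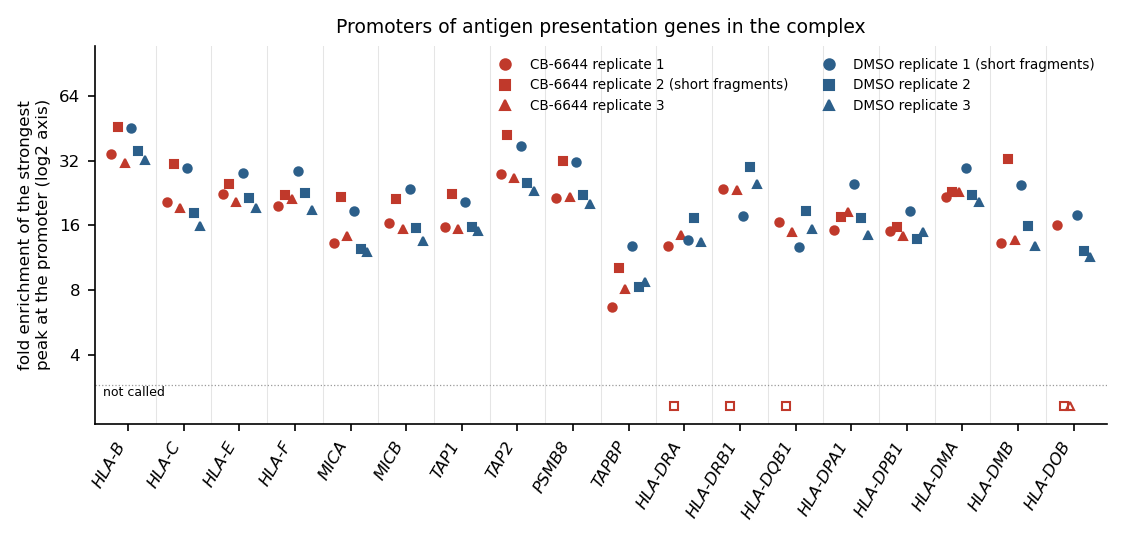
Fold enrichment at the strongest promoter region of 18 antigen presentation genes on a log2 axis, 1 point per library, red for CB-6644 and blue for DMSO, with open symbols under the dotted line for libraries that called no peak. The groups overlap at each gene with 6 calls, and the open symbols are CB-6644 libraries at HLA-DRA, HLA-DRB1, HLA-DQB1 and the stronger of the 2 HLA-DOB regions, whose weaker one, not drawn, was called in all 6. The HLA-B region drawn is the stronger of 2 and lies at the upstream end of the annotated gene.

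The genes that control or serve this system from other chromosomes were looked up by the same rule. All 24 had a promoter called in all 6 libraries, and 0 passed the test in either direction. Their log2 differences were positive in 23 of 24, with a median of 0.15. Over all promoters tested 71.1% were positive, with a median of 0.09. The 24 were strong promoters, at a median percentile of 93.2, and no test compared them with others. The nearest to the threshold were RFXAP, a subunit of the RFX complex (0.40, SE 0.10, limma adjusted p = 0.051), and CIITA, the class II transactivator (0.45, SE 0.14, limma adjusted p = 0.099). CTSS, a protease of the class II pathway, had the 1 negative value, -0.16.

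In class III, 3 of the 7 genes listed for the tumor necrosis factor cluster had a promoter called in all 6 libraries, and 0 passed the test. TNF and LTB, both inflammatory cytokines of one family, had no region within 1000 bp of a start site in any library. LTA, which encodes lymphotoxin alpha (31572128 to 31572747), had folds of 11.8, 15.5 and 9.32 against 15.4, 10.9 and 10.4 (log2 difference 0.11, SE 0.14, limma adjusted p = 0.64). NFKBIL1, named for its likeness to NF-kB inhibitors (31547347 to 31547667, shared with ATP6V1G2), had 17.1, 31.7 and 15.7 against 26.4, 17.2 and 14.7 (0.17, limma adjusted p = 0.33). AIF1, which encodes a calcium-binding protein of macrophages, had folds of 22.7, 32.5 and 21.4 against 26.8, 23.4 and 18.6 (0.20, SE 0.11, limma adjusted p = 0.28). At LST1, a leukocyte gene of the same cluster, CB-6644 replicates 1 and 2 read 9.35 and 6.97 and replicate 3 had no call, and the DMSO libraries read 18.7, 15.4 and 14. All 3 DMSO values were above the CB-6644 values that were called, with no test.

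The heat shock genes HSPA1A and HSPA1B encode nearly identical proteins of the HSP70 family, so their reads may be split between copies. HSPA1B (31827012 to 31828085) was strong, at a mean percentile of 97.1, with folds of 22, 26.7 and 19.9 against 30.1, 22.3 and 22.6 (log2 difference -0.05, limma adjusted p = 0.79). HSPA1A and HSPA1L shared a weaker region (31814588 to 31815006, mean percentile 21.4), with 10.9, 8.54 and 12.2 against 11.3, 9.59 and 7.07. Its normalized values did not overlap between groups, with a log2 difference of 0.34 (SE 0.13, limma adjusted p = 0.17), and leaving out CB-6644 replicate 2 gave 0.56, while leaving out DMSO replicate 3 gave 0.19. Of the complement genes, C2 shared a promoter region with EHMT2, a histone methyltransferase (0.25, SE 0.17, limma adjusted p = 0.38), CFB had a call in 1 library, and C4A and C4B, which are close copies of each other, had none.

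The remaining gene groups showed no called promoter other than those named. The 15 class III genes of RNA and chromatin function gave 13 regions called in all 6 libraries, with a median log2 difference of 0.15, 10 of them positive and 0 called. The 27 other class I genes gave 20 such regions with a median of 0.03 and 0 called. The 21 other class II genes gave 13 with a median of 0.08 and 0 called. The 25 other class III genes gave 15 with a median of 0.13 and 0 called. The 6 TRIM genes of the list, which did not hold TRIM40, gave 4 regions with a median of 0.14, and TRIM31 was called. A list of 14 zinc finger genes and their neighbors, of which 5 lie in the interval and the others just before it, gave 10 regions. Their median was -0.14, with 1 positive and 0 called. Only the regions of ZNF311 (-0.47, SE 0.15, limma adjusted p = 0.11) and POLR1H (-0.07) lie in the interval. The median and the positive region thus rest mostly on promoters outside the MHC interval. Over all promoters tested the median was 0.09.

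Calls present in 1 group were rare. In all 3 DMSO libraries and no CB-6644 library there were 9 of the 347 MHC regions, 5 in class I, 3 in class III and 1 in class II (2.59%, where 4.5% of all regions were of that kind). In all 3 CB-6644 libraries and no DMSO library there were 3, 1 in each part (0.865%, against 0.586% of all). More DMSO than CB-6644 libraries called 85 regions (24.5%, against 32.5% of all regions), more CB-6644 libraries 38 (11%, against 12.8%), and equal numbers 224 (64.6%, against 54.7%). These counts changed with the libraries used, in the MHC and over the genome. Without CB-6644 replicate 2 there were 16 DMSO-only MHC regions (5256 over the genome, against 4016 with all libraries), and 20 in the 4 long-fragment libraries (7251). There were 6 CB-6644-only MHC regions without DMSO replicate 1 (1014 over the genome, against 523 with all libraries), 5 without CB-6644 replicate 1 (782) and 7 in the long-fragment libraries (1566).

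The strongest DMSO-only regions were 2 intergenic ones near the median strength of their lists. The one of class II (32554192 to 32554522) overlaps the HLA-DRB6 pseudogene, 23.9 kb from the HLA-DRB5 start, with folds of 24.6, 24.2 and 18.8. The one in the olfactory receptor stretch (29211324 to 29211762, 38 kb from OR2J2) had 24.3, 16.1 and 20. Their mean percentiles were 56.4 and 55.4. A further one 34.4 kb from TRIM27 (28958378 to 28959184) held 4 NFY boxes and had 9.48, 12.3 and 10.8.

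The other 6 DMSO-only regions had mean percentiles from 13.9 to 32.9. They lay at the promoters of TCF19 (31159349 to 31159646), a cell cycle gene, and PPP1R10 (30616084 to 30616286), a phosphatase regulatory subunit, in an intron of PSORS1C1 (31128025 to 31128360, 7.58 kb from the start of CDSN, a skin adhesion gene), near NCR3, an activating receptor of natural killer cells (31597067 to 31597239), in a coding exon of SLC44A4, a choline transporter family gene (31870481 to 31870723), and in an intron of TNXB, a matrix protein (32086745 to 32086931). Both promoter genes had another promoter region called in all 6 libraries. The 3 CB-6644-only regions had mean percentiles of 17.4, 19.4 and 27. They lay 17.7 kb from C6orf15 (31094425 to 31094845), in an intron of ABHD16A, a phospholipase gene, 5.07 kb from its start (31697709 to 31697999), and 34.9 kb from ZBTB9, a zinc finger gene (33490304 to 33490483), with folds of 7.72 to 12.3.

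The share of each library's peaks that fell in the MHC was slightly larger with CB-6644. It was 4.43, 4.71 and 4.37 per 1000 peaks in CB-6644 replicates 1, 2 and 3 and 4.26, 4.11 and 4.04 in DMSO replicates 1, 2 and 3. No DMSO library reached the lowest of the CB-6644 libraries. With CB-6644 the mean was 4.50 ± 0.181 and with DMSO 4.14 ± 0.115 (SD, n = 3 each), which differ by 0.365 (p = 0.1 in an exact permutation test, two-sided, which is the lowest value possible with 3 against 3). The difference was 0.325 for the long-fragment and 0.444 for the short-fragment libraries. With equal numbers of top peaks in each library it was 0.154 (exact permutation test, p = 0.6), so its size depended on how many peaks were taken.

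By part, the class I share was 2.34 ± 0.0308 with CB-6644 and 2.17 ± 0.0622 with DMSO per 1000 peaks (SD, n = 3 each; exact permutation test, p = 0.1). The class III share was 0.938 ± 0.0738 and 0.864 ± 0.0312 (SD, n = 3 each; exact permutation test, p = 0.2), and the class II share 1.23 ± 0.0856 and 1.10 ± 0.0778 (SD, n = 3 each; exact permutation test, p = 0.2). In class III and class II the groups overlap, and without CB-6644 replicate 2 their differences were 0.0346 and 0.0750. With equal numbers of top peaks the differences were 0.0455 in class I (exact permutation test, p = 0.8), 0.0569 in class III (exact permutation test, p = 0.8) and 0.0512 in class II (exact permutation test, p = 0.7). Away from promoters the groups did not overlap, at 3.45 ± 0.0738 and 3.10 ± 0.105 per 1000 such peaks (SD, n = 3 each; exact permutation test, p = 0.1), and at promoters the values were 7.33 ± 0.179 and 7.52 ± 0.279 (SD, n = 3 each; exact permutation test, p = 0.4). The CB-6644 lists called 74.2 ± 3.67% of the MHC regions and the DMSO lists 81.1 ± 4.41% (SD, n = 3 each; exact permutation test, p = 0.2). Over the rest of the genome these were 65.4 ± 1.93% and 76.6 ± 3.79%.

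**Figure D5:**
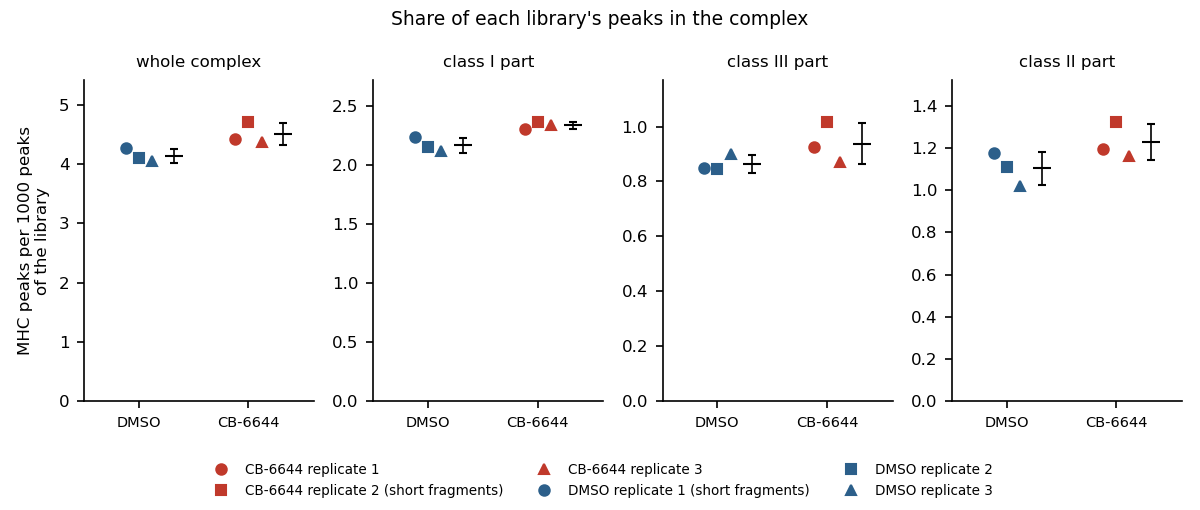
MHC peaks per 1000 peaks of each library for the whole complex and its 3 parts, 1 symbol per library (red CB-6644, blue DMSO), with the mean and SD of each group in black and vertical axes from 0. For the whole complex and class I the 3 CB-6644 symbols lie above the 3 DMSO symbols, and for class III and class II the groups overlap.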

How the data were processed

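Omni-ATAC was done on 6 libraries of MM.1S cells, 3 with CB-6644 and 3 with DMSO, grouped by the labels. Per the submitters' processing notes, reads were aligned to hg38 with Bowtie2 2.4.2 and peaks were called with MACS3 3.0, in each library separately. As deposited, fold enrichment is the ratio of pile-up to local background. The authors' peak caller also gave each peak a −log10 p, a −log10 q and a score. Caller settings, read totals and the treatment of reads with several positions are not given in the sources used here. The study's edgeR test could not be run, since it works on reads.

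After 1580 peaks on sequences other than chromosomes 1 to 22, X and Y were left out, an overlap of 1 bp was enough to merge peaks. Each region took the highest fold per library. Regions called in all 6 libraries (42089) were tested with limma 3.58.1 in R 4.3.3 (log2 fold, quantile normalization, no pseudocount, group and fragment-length set, residual df 3, prior df 4.12), and the fit was tested on simulated data. A region called in fewer libraries got no size test. Promoters were within 1000 bp of a start site of GENCODE release 44, and a region was placed in a part by its midpoint. Shares were compared by exact permutation of 3 against 3 libraries (smallest p 0.1), densities by exact sign flips. Motifs were sought on both strands in 200 bp around the strongest summit. The lowest −log10 q was 3.01 to 3.33 by library, so a missing call is not absence of accessibility. Tables were handled in pandas 2.3.3 and numpy 2.4.6 under Python 3.11.15, tests run in scipy 1.17.1 and plots drawn in matplotlib 3.10.9.

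The members, gene lists and tests were chosen with earlier results of these data known. Named were fixed lists of MHC genes, the 3 strongest regions of each part, the called regions and the group-only regions. DDAH2's promoter, LST1 and the stretches from HLA-DRA to HLA-DQB1 and TRIM31 to TRIM10 were singled out after their values were seen, as were AIF1, RFXAP, CIITA and CTSS. A gene with several promoter regions is given by its strongest one unless more are named. Some items are not reported here. ZBED9 and ZNRD1 had no entry in the annotation under those names. Alternatives were other thresholds, equal numbers of top peaks, all sequences, a minimum coverage of 50%, other normalizations and covariates, the long-fragment libraries, each library left out and a replicate block, and 7 more were added after seeing the data.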

Additional observations from a re-analysis of the deposited data

How the results depend on the processing

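The share of peaks in the MHC and in each part, and the density of regions, kept their direction under every alternative run, with MHC share differences from 0.154 to 0.431 per 1000 peaks. Counting merged regions gave 0.292 per 1000 regions. The counts of called MHC regions depended on the fit. Higher and lower regions numbered 0 and 0 without the fragment-length covariate (214 and 194 over the genome), 1 and 0 in the 4 long-fragment libraries (990 and 1309), 6 and 4 with normal scores of −log10 p (2986 and 3018 over the genome), and 0 to 1 and 0 to 4 when each library was left out. DMSO-only regions numbered 5 with equal numbers of top peaks, where the genome count also fell, from 4016 to 1857. They numbered 20 in the long-fragment libraries (7251 over the genome) and 10 to 16 with a library left out (4607 to 5900). CB-6644-only regions numbered 7 in the long-fragment libraries (1566 over the genome) and 3 to 6 with a library left out (654 to 1014). In the long-fragment libraries 215 MHC regions were tested. Of these, 42 did not overlap between groups in the higher and 27 in the lower direction. Values of 2 against 2 separate more easily, and the share over all regions is not given here, so these counts are not read as a result. The cause of the other changes was not tested.

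Whether the replicate numbers pair the samples could not be decided. Deviations of same-numbered libraries correlated at -0.477, -0.332 and 0.326, but the signs followed the fragment-length set. The short-fragment libraries correlated at 0.572 although their numbers differ, and every pairing of a short-fragment with a long-fragment library was negative. Among pairs of long-fragment libraries the same-numbered pair, at 0.326, lay inside the range of the others, 0.253 to 0.374. A replicate block in place of the covariate gave 0 higher and 0 lower MHC regions and 0 over the genome, by limma. When the covariate was kept beside the block, the counts were 3 and 5 (1732 and 2375 over the genome). The paired difference in MHC share was 0.365 (exact sign-flip test, p = 0.25, the smallest for 3 pairs). Unknown read totals limit every comparison of calls.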
